A study of Homo sapiens with 8 samples.

Results

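The basal and stratified keratins are the structural keratins that epithelia with several cell layers make: *KRT5*, *KRT14* and *KRT15* of the basal layer, *KRT6A*, *KRT6B*, *KRT16* and *KRT17* of activated and wounded epithelium, and *KRT13* of the upper layers of moist stratified epithelium. The members were taken by gene symbol, and all 8 were found among the 13842 genes of the expression table. They were chosen by family, with earlier results of these libraries in view. The rise of *KRT13* in DCIS.COM cells is the one known to have been seen, so the response of DCIS.COM cells to the vector, and all comparisons of *KRT13* that use those libraries, are given as descriptions without p-values. The other p-values are not independent evidence for the choice of genes.

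The expression profiles came from 8 human cell line libraries in 4 groups of 2. MCF10A is a non-tumorigenic breast epithelial line, and DCIS.COM is a line that models ductal carcinoma in situ and descends from HRAS-transformed MCF10A cells. Each line was stably transduced with the lentiviral vector pLOC-MALINC1, which expresses the long non-coding RNA MALINC1, or with pLOC-empty, and all cells were selected with blasticidin at 10 µg/ml. The question was how forced expression of MALINC1 changed the transcriptome of each line. Both lines grew in DMEM/F-12 with horse serum, and the MCF10A medium alone also held epidermal growth factor, hydrocortisone, insulin and cholera toxin, so line and medium cannot be told apart. The labels do not say whether the 2 libraries of a group were separate cultures, so p-values measure the spread between these libraries, which may be technical.

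Keratins are obligate partners: a type I chain pairs with a type II chain, and the pairs assemble into the intermediate filaments that tie desmosomes and hemidesmosomes to the cell interior. *KRT5*, *KRT6A* and *KRT6B* are type II chains, and *KRT13*, *KRT14*, *KRT15*, *KRT16* and *KRT17* are type I chains. In the breast, basal and myoepithelial cells carry *KRT5*, *KRT14* and *KRT17*, whereas luminal cells carry *KRT8*, *KRT18* and *KRT19*.

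In the GRCh37 (hg19) assembly the members lie in both keratin gene clusters, all on the minus strand. On chromosome 12, each with 9 exons, are *KRT6B* (52840435 to 52845930), *KRT6A* (52880960 to 52887041) and *KRT5* (52908359 to 52914314). *KRT6C*, another KRT6 copy that was measured but is not a member, lies between the first pair (52862300 to 52867589). On chromosome 17, each with 8 exons, are *KRT13* (39657233 to 39661957), *KRT15* (39669997 to 39678781), *KRT14* (39738531 to 39743147), *KRT16* (39766030 to 39772151) and *KRT17* (39775694 to 39781094).

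Several of these genes are near copies of each other, which sets how well 76-nt reads can be told apart. The coding sequences of *KRT6A* and *KRT6B* were 97.52% identical over 1692 nt, with 42 differences, and those of *KRT6B* and *KRT6C* were 98.52% identical, with 25 differences. The first 76 coding bases, in exon 1, are shown because they were the same in all 3 genes, so a read from them names none. Coding bases 670 to 745, in exon 2, are shown because there the copies separate. *KRT6B* had 10 differences from *KRT6A* in this stretch and *KRT6C* had 6. Capitals mark the positions at which the 3 reference sequences are not all equal.
KRT6A, KRT6B and KRT6C, shared (in KRT6A, chr12:52886897-52886972, minus strand): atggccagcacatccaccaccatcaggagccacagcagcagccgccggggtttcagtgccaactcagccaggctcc
KRT6A, distinct (chr12:52885316-52885391, minus strand): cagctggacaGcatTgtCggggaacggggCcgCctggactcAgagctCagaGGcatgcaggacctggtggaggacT
KRT6B, distinct (chr12:52844200-52844275, minus strand): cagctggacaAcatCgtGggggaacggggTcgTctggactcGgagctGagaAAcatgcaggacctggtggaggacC
KRT6C, distinct (chr12:52865860-52865935, minus strand): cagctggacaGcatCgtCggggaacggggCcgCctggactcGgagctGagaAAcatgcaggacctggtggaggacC

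Of the 76-nt windows of the canonical transcript, 34.1% in *KRT6B* and 25.9% in *KRT6A* also occurred, base for base, in a transcript of another gene. The share was 9.93% in *KRT14* and 9.48% in *KRT16*, which had a run of 158 nt in common, 4.3% in *KRT17*, 2.73% in *KRT5* and 0% in *KRT15*. *KRT13* had 15.9%, all of it in the antisense long non-coding RNA gene ENSG00000229732 on the opposite strand (chr17:39657235-39658661). The strand setting of the read counting is not given in the sources used here, so reads of *KRT13* and of this RNA may have been counted together. The values of *KRT6A* and *KRT6B*, and of *KRT14* and *KRT16*, are uncertain to the extent that shared reads were divided between copies.

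**Figure D1:**
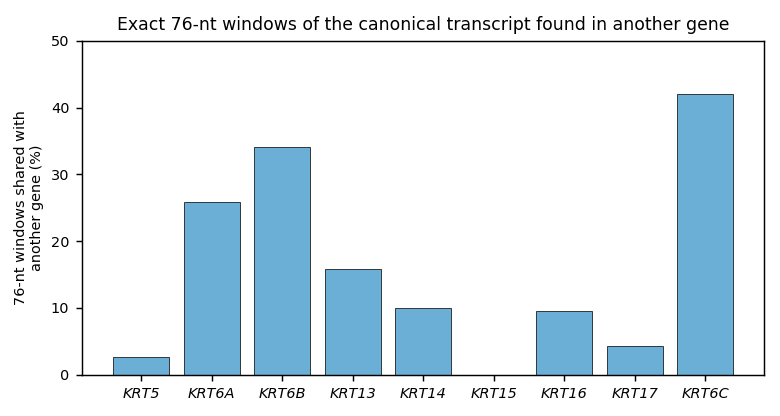
Share of all 76-nt windows of each canonical transcript (vertical axis, %) that occur exactly in a transcript of another gene, for the 8 members and *KRT6C*. *KRT6B* (34.1%) and *KRT6A* (25.9%) stand highest among the members and *KRT15* is at 0.

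The libraries held 20604377 to 37550457 reads on genes. MALINC1, the gene carried by the vector, rose in MCF10A from 1.25 ± 0.357 to 12.5 ± 1.05 CPM (SD, n = 2 each) and in DCIS.COM from 1.25 ± 0.146 to 21.8 ± 3.76 CPM (SD, n = 2 each). CPM are read counts scaled to the size of the library. The signal recognition particle RNA genes RN7SL1 and RN7SL2 took 8.22 to 15.73% of the reads. All 4 of 4 epithelial markers were measured, and they did not move together between the lines. *CDH1* (E-cadherin) averaged 631.4 and 688.8 CPM in MCF10A with pLOC-empty and pLOC-MALINC1, and 215.4 and 325.0 CPM in DCIS.COM. Between the lines with pLOC-empty, *CDH1* (log2 fold change -1.55) and *ESRP1* (-0.21) were lower in DCIS.COM. *EPCAM* (2.17, from 62.2 to 280.1 CPM) and *CLDN4* (0.36) were higher there.

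Keratin transcripts were abundant in MCF10A and mostly far lower in DCIS.COM. Of the gene reads in MCF10A, the 8 members together took 3.36 and 3.42% with pLOC-empty and 4.32 and 4.17% with pLOC-MALINC1. In DCIS.COM they took 0.733 and 0.768% with pLOC-empty and 0.875 and 0.943% with pLOC-MALINC1. The ranges of the 4 groups did not overlap. In bulk RNA, fewer cells that express a keratin and less of its RNA per cell cannot be told apart.

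Levels of different genes were set side by side as CPM per kilobase of merged exons. In MCF10A pLOC-empty the order was *KRT17* (3333 CPM per kb), *KRT6A* (3030), *KRT5* (1488), *KRT15* (863.2), *KRT16* (842.4), *KRT6B* (731.0), *KRT14* (643.8) and *KRT13* (7.53). Only the libraries of *KRT15* and *KRT16* overlapped between neighbours. With pLOC-MALINC1 in MCF10A, *KRT14* (1296 CPM per kb) came directly after *KRT5* (2111) and above *KRT6B* (1136), *KRT15* (836.3) and *KRT16* (808.2). In DCIS.COM pLOC-empty the order was *KRT15* (684.6), *KRT6B* (483.4), *KRT17* (323.9), *KRT5* (258.5), *KRT16* (39.5), *KRT6A* (30.9), *KRT14* (14.6) and *KRT13* (0.704). With pLOC-MALINC1 in DCIS.COM, *KRT5* (335.9) stood above *KRT17* (269.4), *KRT6A* (33.7) above *KRT16* (26.7) and *KRT13* (13.6) above *KRT14* (9.70). In these last 3 groups no neighbours overlapped. *KRT17* led in MCF10A and *KRT15* in DCIS.COM also per kilobase of the longest or the canonical transcript, while ranks below them moved: by canonical length *KRT15* (3010 CPM per kb) stood above *KRT5* (2748) in MCF10A pLOC-empty.

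**Figure D2:**
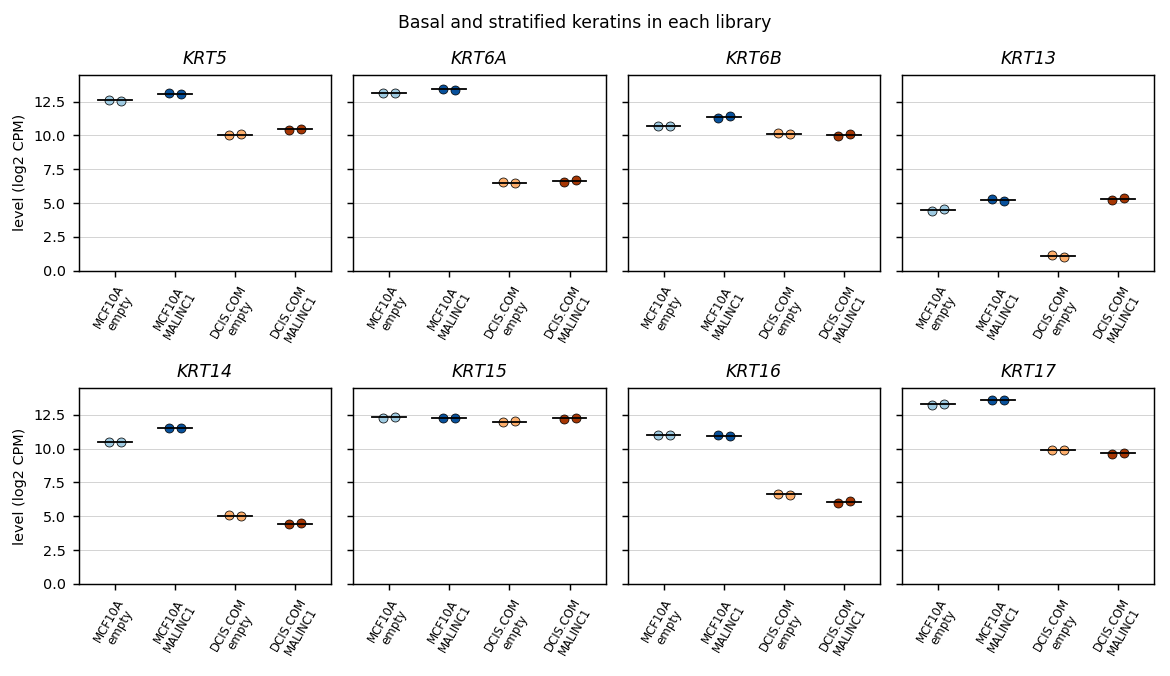
Deposited log2 CPM (vertical axis) of the 8 members in each of the 8 libraries. Points are libraries, bars are group means and n is 2 per group. *KRT6A*, *KRT14*, *KRT16* and *KRT17* lie far lower in DCIS.COM than in MCF10A, *KRT15* is nearly level, and *KRT13* has its lowest level in DCIS.COM with pLOC-empty.

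In MCF10A cells, pLOC-MALINC1 went with higher levels of 6 of the 8 members. *KRT14*, the type I partner of *KRT5* in basal cells, had the largest change and was the 1 member called. A gene was called here when it changed by more than 2-fold with an adjusted p below 0.01, from limma fitted to all genes with Benjamini-Hochberg adjustment. Across all genes 5.50% were called. At any fold 6 members passed, all of them higher, beside 39.6% of all genes. With only the MCF10A libraries fitted, which leaves fewer degrees of freedom, 3 members passed, and *KRT5* (limma adjusted p = 0.0114), *KRT6A* (0.0665) and *KRT17* (0.0715) did not. The median log2 fold change was 0.41 over the members and 0 over all genes.

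Among the basal pair, *KRT14* stood at 1479 and 1424 CPM in MCF10A with pLOC-empty and at 2954 and 2890 CPM with pLOC-MALINC1. The groups did not overlap, and the higher pair lay about as far apart as the lower. The log2 fold change was 1.01 (SE 0.039, limma adjusted p = 1.19e-09), just over the 2-fold limit. It was 0.98 without pLOC-empty replicate 2 and 0.99 without pLOC-MALINC1 replicate 1. It also fell under the limit with 3 other scalings, at 0.88 after quantile normalization, 0.97 without the RN7SL genes in the library totals and 0.97 by upper quartile. In each of these settings the direction and the adjusted p below 0.01 stayed, and the call was lost.

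*KRT5*, the main type II chain of basal cells, stood at 6239 and 6060 CPM with pLOC-empty and at 8766 and 8687 CPM with pLOC-MALINC1. Both pLOC-MALINC1 libraries were higher than both controls, with a log2 fold change of 0.505 (SE 0.041, limma adjusted p = 7.88e-07). *KRT15*, a type I chain of basal cells, stood at 4990 and 5315 CPM against 5057 and 4926 CPM. Its groups overlapped, and the log2 fold change of -0.045 (SE 0.052, limma adjusted p = 0.489) had a 95% interval of -0.16 to 0.07. It was positive, at 0.047, after quantile normalization.

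Among the keratins of activated epithelium, *KRT6B* stood at 1678 and 1687 CPM with pLOC-empty and at 2461 and 2769 CPM with pLOC-MALINC1. This was a log2 fold change of 0.63 (SE 0.052, limma adjusted p = 8.26e-07). *KRT6A* stood at 8910 and 8820 CPM against 11276 and 10652 CPM, a log2 fold change of 0.31 (SE 0.047, limma adjusted p = 0.00016). For both copies every pLOC-MALINC1 library lay above every control. With the reads of the KRT6 copies summed into one gene the log2 fold change was 0.38 (SE 0.049, limma adjusted p = 4e-05).

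*KRT17* stood at 9838 and 10132 CPM with pLOC-empty and at 12595 and 12250 CPM with pLOC-MALINC1 in MCF10A. The groups did not overlap, with a log2 fold change of 0.315 (SE 0.042, limma adjusted p = 5.66e-05). Quantile normalization assigned *KRT17* one and the same value in every MCF10A library, because its rank was the same in each, so that setting says nothing about its change. *KRT16* stood at 2117 and 2056 CPM against 2031 and 1973 CPM, a log2 fold change of -0.06 (SE 0.038, limma adjusted p = 0.202) with a 95% interval of -0.14 to 0.02. Here both pLOC-MALINC1 libraries lay below both controls by less than the test could separate.

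*KRT13*, which marks suprabasal cells of moist stratified epithelium, was the least abundant member in MCF10A. It stood at 20.8 and 23.1 CPM with pLOC-empty and at 39.6 and 35.6 CPM with pLOC-MALINC1. The pairs did not overlap, and the log2 fold change was 0.775 (SE 0.089, limma adjusted p = 1.49e-05), under the 2-fold limit.

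In DCIS.COM cells *KRT13* was 18.7-fold higher with pLOC-MALINC1 and the other members moved by less than 2-fold in both directions. *KRT5*, *KRT6A* and *KRT15* were higher, and *KRT6B*, *KRT14*, *KRT16* and *KRT17* lower. As many members were called as in MCF10A, 1, beside 4.53% of all genes. At any fold 6 members passed, 3 higher and 3 lower, beside 33.2% of all genes. These shares are descriptions only, since this contrast was known when the genes were chosen. The median log2 fold change was 0.018 over the members and 0.0089 over all genes.

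*KRT13* stood at 2.15 and 1.96 CPM in the DCIS.COM pLOC-empty libraries, which is 46 and 41 reads. It stood at 37.5 and 41.6 CPM with pLOC-MALINC1. The control level was low but over the 0.14 and 0.143 CPM to which 3 reads, the limit that a count of 0 allows, came in those libraries. The groups lay far apart. The log2 fold change was 4.22 (SE 0.089), with a 95% interval of 4.03 to 4.42. It was between 4.15 and 4.30 when any 1 library was left out. The share of the antisense RNA in these reads was not tested.

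*KRT14* moved the other way in DCIS.COM, from 33.6 and 32.5 CPM to 21.1 and 22.6 CPM, a log2 fold change of -0.59 (SE 0.039). *KRT16* went from 99.1 and 96.6 CPM to 64.0 and 68.5 CPM, a log2 fold change of -0.56 (SE 0.038). *KRT17* went from 967.5 and 973.2 CPM to 789.2 and 824.8 CPM, a log2 fold change of -0.27 (SE 0.042). In all 3 genes both pLOC-MALINC1 libraries lay below both controls. The summed level of the myoepithelial markers measured (3 of 4) was lower alongside, at 43.0 and 49.7 CPM against 84.3 and 91.9 CPM, and its part in these values was not tested. Most of that sum was *MYLK*, and *OXTR* went the other way, from 0.355 to 0.764 CPM.

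*KRT5* went from 1053 and 1084 CPM to 1366 and 1410 CPM in DCIS.COM, a log2 fold change of 0.38 (SE 0.041). *KRT15* went from 3984 and 4188 CPM to 4743 and 4972 CPM, a log2 fold change of 0.25 (SE 0.052). Neither gene's groups overlapped. *KRT6A* went from 93.5 and 87.1 CPM to 94.9 and 102.6 CPM, a log2 fold change of 0.13 (SE 0.047). *KRT6B* went from 1133 and 1092 CPM to 1014 and 1074 CPM, a log2 fold change of -0.092 (SE 0.052), and the sum of the KRT6 copies had -0.061 (SE 0.049). In both KRT6 genes the pairs of libraries stood apart by less than the spread within the wider pair.

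**Figure D3:**
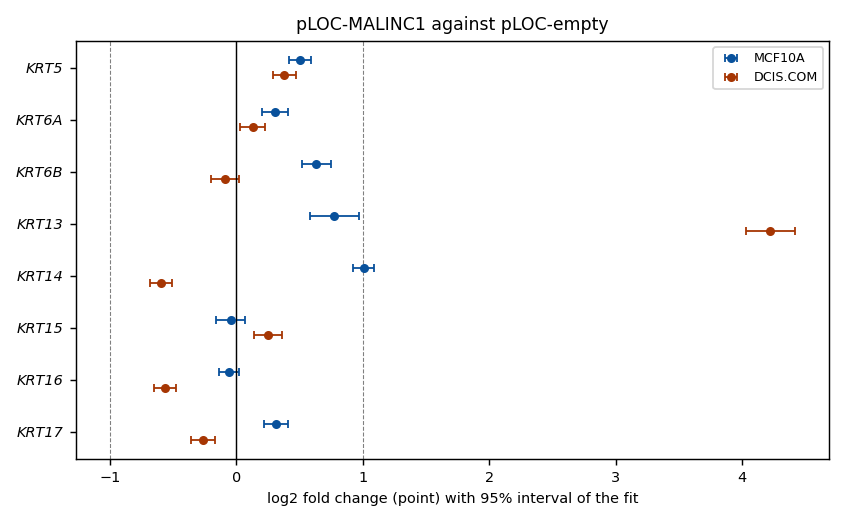
Log2 fold change of each member with pLOC-MALINC1 against pLOC-empty (horizontal axis) in each line, with the 95% interval of the fit over 8 libraries. Dashed lines mark a 2-fold change. *KRT13* in DCIS.COM (4.22) and *KRT14* in MCF10A (1.01) are the points past it, and *KRT14* lies on opposite sides of 0 in the lines.

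The response was set against the other line's as the DCIS.COM log2 fold change minus that in MCF10A. It uses the DCIS.COM contrast, so it too is given without p-values. *KRT13* had a difference of 3.45 (SE 0.13) and *KRT14* of -1.60 (SE 0.055), and these 2 members were called, beside 9.20% of all genes. At any fold 6 members passed, 2 higher and 4 lower, beside 35.9% of all genes. As for DCIS.COM alone, these counts are descriptions only. *KRT6B* had -0.72 (SE 0.073), *KRT17* -0.58 (SE 0.06), *KRT16* -0.50 (SE 0.053) and *KRT15* 0.295 (SE 0.073).

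For *KRT5* the 95% interval of the difference, -0.128, was -0.25 to 0, and for *KRT6A*, at -0.18, it was -0.32 to -0.03. The median difference was -0.34 over the members and -0.0071 over all genes. The opposite signs of *KRT14* in the lines, 1479 to 2954 CPM in one pair of replicates and 33.6 to 21.1 CPM in the other, start from levels that are far apart.

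With pLOC-empty, 6 of the 8 members were called, all of them lower in DCIS.COM than in MCF10A, beside 28.6% of all genes called in either direction. At any fold all 8 passed, beside 73.9% of all genes. The median log2 fold change was -3.37 over the members and 0.031 over all genes. Comparisons between lines and comparisons within lines share libraries, so their values are given side by side only.

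*KRT6A* had the largest gap with pLOC-empty. It was 98.2-fold lower in DCIS.COM, from 8865 ± 63.4 CPM to 90.3 ± 4.55 CPM (SD, n = 2 libraries each), a log2 fold change of -6.62 (SE 0.047, limma adjusted p = 3.37e-17). Its near copy *KRT6B* was 1.51-fold lower, from 1683 ± 6.7 CPM to 1113 ± 28.9 CPM (log2 fold change -0.60, limma adjusted p = 2.48e-07), and so was not called. *KRT6A* was thus 5.31 and 5.23 times as abundant as *KRT6B* by CPM in MCF10A with pLOC-empty, and 0.0825 and 0.0797 times in DCIS.COM. Over the KRT6 copies summed, the log2 fold change was -3.06 (SE 0.049).

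*KRT14* was 43.9-fold lower in DCIS.COM, from 1452 ± 38.9 to 33.0 ± 0.791 CPM (SD, n = 2 each). *KRT5*, its partner, was 5.75-fold lower, from 6149 ± 127 to 1069 ± 22.2 CPM (SD, n = 2 each). Their log2 fold changes were -5.455 (SE 0.039) and -2.525 (SE 0.041), with limma adjusted p = 3.37e-17 and 4.08e-14. The *KRT5* to *KRT14* ratio per kilobase therefore went from 2.30 and 2.32 in MCF10A pLOC-empty to 17.1 and 18.2 in DCIS.COM. *KRT16* was 21.3-fold lower and *KRT17* 10.3-fold lower, with limma adjusted p = 1.2e-16 and 5.04e-15. *KRT13* was 10.4-fold lower, with a log2 fold change of -3.37 (SE 0.089).

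*KRT15* was the member with the smallest gap. It stood at 5152 ± 230 CPM in MCF10A and 4086 ± 144 CPM in DCIS.COM (SD, n = 2 each), a log2 fold change of -0.33 (SE 0.052, limma adjusted p = 5.92e-05). Its direction depended on the scaling: after quantile normalization it was 0.35.

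With pLOC-MALINC1, 6 members were again called, all lower in DCIS.COM, beside 26.6% of all genes, with *KRT6B* now among them and *KRT13* not. At any fold 6 passed, beside 73.0% of all genes. *KRT14* had the largest gap, 133-fold (log2 fold change -7.06, SE 0.039, limma adjusted p = 2.13e-18), followed by *KRT6A* at 111-fold, *KRT16* at 30.2-fold, *KRT17* at 15.4-fold and *KRT5* at 6.29-fold. *KRT6B* was 2.5-fold lower (log2 fold change -1.32, SE 0.052, limma adjusted p = 1.17e-10), and -0.93 after quantile normalization, under the limit.

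The remaining pair did not separate with pLOC-MALINC1. *KRT13* stood at 37.6 ± 2.83 CPM in MCF10A and 39.6 ± 2.90 CPM in DCIS.COM (SD, n = 2 each), a log2 fold change of 0.075 with a 95% interval of -0.12 to 0.27, and its libraries overlapped. *KRT15* stood at 4992 ± 92.8 and 4857 ± 162 CPM, a log2 fold change of -0.04 (SE 0.052, limma adjusted p = 0.491) with a 95% interval of -0.15 to 0.07. It was 0.49 after quantile normalization, 0.14 without the RN7SL genes in the totals and 0.076 by upper quartile. The median log2 fold change was -3.30 over the members and 0.0055 over all genes.

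**Figure D4:**
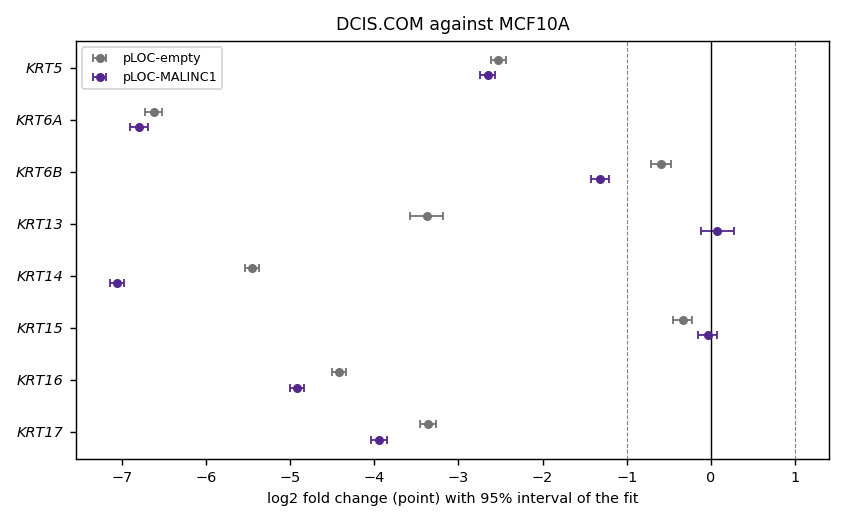
Log2 fold change of each member in DCIS.COM against MCF10A (horizontal axis), with pLOC-empty and with pLOC-MALINC1, and the 95% interval of the fit over 8 libraries. Dashed lines mark a 2-fold change. *KRT6A* and *KRT14* lie lowest, *KRT15* lies near 0 with both vectors, and *KRT13* goes from -3.37 with pLOC-empty to 0.075 with pLOC-MALINC1.

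The makeup of the keratin transcripts differed by line. As shares of the summed CPM per kilobase, *KRT17* took 30.1 and 30.9% and *KRT6A* 27.9 and 27.5% in MCF10A pLOC-empty, and *KRT15* 7.65 and 8.13%. In DCIS.COM pLOC-empty, *KRT15* took 36.6 and 38.0%, *KRT6B* 27.0 and 25.7%, *KRT17* 17.7 and 17.6% and *KRT6A* only 1.75 and 1.61%. *KRT5* took 13.4 to 17.3% in all 8 libraries. By the canonical transcript length, which for *KRT15* is far shorter than its merged exons, *KRT15* took 15.4 and 16.2% in MCF10A pLOC-empty and 57.5 and 58.8% in DCIS.COM pLOC-empty.

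Within each line the vector moved the shares less. In MCF10A, *KRT14* went from 6.01 and 5.76% to 9.20 and 9.19%. In DCIS.COM, *KRT13* went from 0.0404 and 0.0364% to 0.675 and 0.714%, and *KRT15* to 41.6% in both pLOC-MALINC1 libraries. The type II to type I ratio of the members per kilobase was 0.937 and 0.908 in MCF10A pLOC-empty, 0.979 and 0.992 with pLOC-MALINC1, 0.745 and 0.709 in DCIS.COM pLOC-empty and 0.727 in both with pLOC-MALINC1. The 2 lines did not overlap in this ratio. By canonical length it was lower throughout, 0.610 to 0.696 in MCF10A and 0.315 to 0.329 in DCIS.COM.

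**Figure D5:**
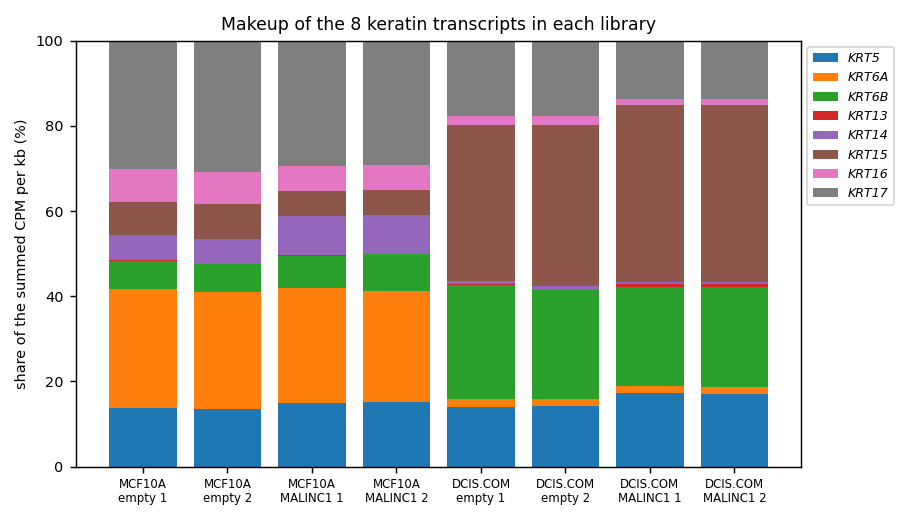
Stacked shares (vertical axis, % of the summed CPM per kb of merged exons) of the 8 members in each of the 8 libraries. *KRT17* and *KRT6A* make up most of each MCF10A column, and *KRT15* and *KRT6B* most of each DCIS.COM column.

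Among the 16 other keratins measured, the usual type II partner of *KRT13*, *KRT4*, was called higher with pLOC-MALINC1 in DCIS.COM. It went from 0.662 ± 0.144 to 5.93 ± 0.02 CPM (SD, n = 2 each), a log2 fold change of 3.05 (SE 0.18). In MCF10A it went from 1.81 ± 0.176 to 2.44 ± 0.0686 CPM, with a log2 fold change of 0.425 (SE 0.18, limma adjusted p = 0.0701). Per kilobase *KRT13* was 2.53 to 16.3 times as abundant as *KRT4* in the 8 libraries.

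The hair keratins *KRT81* and *KRT86* were called lower in DCIS.COM with pLOC-MALINC1. *KRT81* went from 226.1 ± 0.388 to 0.88 ± 0.0324 CPM and *KRT86* from 12.3 ± 1.17 to 0.293 ± 0.0385 CPM. Of all 16 other keratins, 2 were called higher and 4 lower in DCIS.COM with the vector, beside 4.53% of all genes. In MCF10A 1 was called in each direction, beside 5.50% of all genes. Between the lines with pLOC-empty, 3 were called higher and 11 lower in DCIS.COM, beside 28.6% of all genes.

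With the vector, 1 of the genes of keratin anchoring and its laminin was called. Of all genes, 5.50% were called in MCF10A and 4.53% in DCIS.COM. Of 13 desmosome and linker genes, 12 were tested and 0 were called by limma in either line, as with voom weights. At an unadjusted p below 0.05, 7 passed in MCF10A and 10 in DCIS.COM. The share of all genes that passed this unadjusted limit was not counted, so these numbers have no background. When only the adjusted p was used as the limit, 6 were higher and 1 lower in MCF10A, and 9, all higher, in DCIS.COM, with medians of 0.16 and 0.57. Of all genes, 39.6% passed that limit in MCF10A and 33.2% in DCIS.COM, with medians of 0 and 0.0089. Of the 9 hemidesmosome and laminin genes, 0 were called in MCF10A by limma, as with voom weights, and 7 passed at an unadjusted p below 0.05. In DCIS.COM 1 was called lower, *LAMA3*, a chain of the anchoring laminin, which went from 311.0 ± 0.382 to 155.3 ± 8.25 CPM (SD, n = 2 each). Its log2 fold change of -1.0 was just past the limit. Between the lines with pLOC-empty, 8 of the 12 desmosome and linker genes were called lower in DCIS.COM and 0 higher. Of the 9 hemidesmosome and laminin genes, 5 were called lower there and 1 higher, beside 28.6% of all genes.

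Of 15 transcription factors of stratified epithelium, 14 were tested. In MCF10A 4 were called, all higher, beside 5.50% of all genes. *TP63*, a master regulator of basal epithelial cells, went from 4.92 ± 0.45 to 40.9 ± 1.11 CPM (log2 fold change 3.04, SE 0.065, limma adjusted p = 1.08e-11), *GRHL3* from 4.50 to 12.3 CPM (1.43) and *SOX15* from 13.7 to 34.3 CPM (1.32). In DCIS.COM 2 were called higher and 1 lower, beside 4.53% of all genes. *GRHL3* went from 2.50 to 7.32 CPM (1.52), *OVOL1* from 2.62 to 5.33 CPM (1.01) and *TFAP2C* from 57.6 to 28.4 CPM (-1.02). *TP63* there stood at 56.6 ± 1.13 and 49.6 ± 0.598 CPM, a log2 fold change of -0.19 (SE 0.065).

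Of 17 genes of the suprabasal layers, 13 were tested, with 3 called higher and 1 lower in MCF10A and 5, all higher, in DCIS.COM. Of all genes 5.50% and 4.53% were called in these lines. *SPRR1B*, a cornified envelope precursor, went from 7.62 to 37.5 CPM in MCF10A (log2 fold change 2.28) and from 3.46 to 7.57 CPM in DCIS.COM (1.12). *SPRR1A* went from 3.17 to 9.45 CPM in MCF10A (1.55) and *SPRR2A* from 2.55 to 5.35 CPM in DCIS.COM (1.05). The other calls were of genes under 5 CPM. In MCF10A, *DSG1* went from 0.598 to 2.29 CPM and *CDSN* from 2.45 to 1.19 CPM. In DCIS.COM, *SPRR1A* went from 0.825 to 3.61 CPM, *FLG* from 1.11 to 3.98 CPM and *SPRR3* from 0.164 to 0.542 CPM. *SPRR3* had at most 5 reads in a control there. With voom weights 4 in place of 5 were called in DCIS.COM, and the MCF10A counts were the same. With pLOC-empty, 12 of the 13 were called lower in DCIS.COM than in MCF10A and 1 higher, beside 28.6% of all genes called. The medians were -2.25 for the list and 0.031 for all genes.

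Markers of other cell types moved with the groups, and their part in the keratin results was not tested. Luminal markers (7 of 8 measured) summed to 1300 to 1397 CPM in MCF10A pLOC-empty, 1570 to 1663 with pLOC-MALINC1, 3454 to 3502 in DCIS.COM pLOC-empty and 3252 to 3329 with pLOC-MALINC1. *KRT8* (812.7, 815.7, 1852 and 1805 CPM on average) and *KRT18* (504.6, 768.0, 1587 and 1437 CPM) made up most of these sums. Their genes overlap on opposite strands, so their reads may be mixed. The rest of the luminal list did not share one direction between the lines with pLOC-empty. *FOXA1* was higher in DCIS.COM (log2 fold change 1.44), and *MUC1* was lower (-4.76, from 10.5 to 0.329 CPM). *ESR1* (0.31), *KRT19* (0.19) and *GATA3* (0.11) were not called. Mesenchymal markers (5 of 5) summed to 190.0 to 197.8, 116.4 to 130.4, 608.0 to 624.1 and 413.0 to 426.7 CPM in the same order of groups. Most of the DCIS.COM sums was *VIM* (65.3, 34.1, 580.1 and 395.5 CPM on average in the 4 groups). Between the lines with pLOC-empty only *VIM* was higher in DCIS.COM (log2 fold change 3.15). The rest of the list was lower: *CDH2* (-1.07), *ZEB1* (-2.5), *TWIST1* (-0.93) and *SNAI2* (-2.42).

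Myoepithelial markers (3 of 4) summed to 24.2 to 25.4 CPM in MCF10A pLOC-empty, 28.3 to 31.5 with pLOC-MALINC1, 84.3 to 91.9 in DCIS.COM pLOC-empty and 43.0 to 49.7 with pLOC-MALINC1. *MYLK*, a myosin kinase of contractile cells, averaged 12.9, 23.0, 81.6 and 41.4 CPM in these groups. Its log2 fold change with the vector was 0.83 (SE 0.076) in MCF10A and -0.98 (SE 0.076) in DCIS.COM, and the difference of -1.81 (SE 0.11) was called. These were the signs of *KRT14* and *KRT17*, but the rest of the list did not share them. *OXTR* had the opposite signs, -1.06 (SE 0.26) in MCF10A and 1.02 (SE 0.26) in DCIS.COM, where it was under 1 CPM. *ACTA2* was lower in both lines, at -0.54 and -0.56 (SE 0.13 each). For fibroblasts 1 of 4 was measured, *COL1A1*, at 1.51 to 15.9 CPM, for leukocytes 1 of 3, CD68, at 3.53 to 11.4 CPM, and for endothelium 1 of 2, *PECAM1*, at 0.0874 to 7.21 CPM. Other markers of those lists were looked up by symbol and were not found among the genes of the expression table. In MCF10A, *OXTR*, *CDH2*, *COL1A1* and the luminal marker *KRT19* (from 3.0 to 1.44 CPM, log2 fold change -1.01) were called lower with the vector. In DCIS.COM, *SNAI2* and *PECAM1* were called lower and *OXTR* higher.

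For each member the genes with the most similar pattern over the 8 libraries were found by the root mean square distance between mean-centred log2 CPM, among 11497 genes. For *KRT5* they were *DENND2C* (0.0675), *RAB11FIP1* (0.129) and *SERPINB5* (0.157), for *KRT6A* *ZNF883* (0.172), *ZNF790* (0.176) and *POF1B* (0.198), and for *KRT6B* *SOAT1* (0.0473), *CAB39* (0.0519) and *BNC1* (0.0805). For *KRT15* they were *CRYBG1* (0.0334), *TPD52* (0.0336) and *CCNT2* (0.0354), and for *KRT17* *PTPRB* (0.0808), *CRYBG2* (0.0918) and *ROBO3* (0.171). For *KRT16* they were *WFDC21P* (0.158), the KRT16 pseudogene *KRT16P3* (0.19) and *SLFN13* (0.235), the second of which shares sequence with it.

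*KRT13* lay farthest from its nearest genes, *AQP3* (0.49), *LPXN* (0.802) and *SPRR1A* (0.824). *KRT14* followed, with the near-identical amylase copies *AMY1B* (0.328), *AMY1A* (0.333) and *AMY1C* (0.336). The distance also depends on how widely a gene varies, so it does not rank members by closeness of match. Pearson r over the 8 libraries was 0.995 for *KRT14* with *AMY1B*, 0.979 for *KRT13* with *AQP3* and 0.972 for *KRT15* with *CRYBG1*. Between members, the closest pairs were *KRT6A* with *KRT14* (0.422), *KRT6B* with *KRT15* (0.475) and *KRT16* with *KRT17* (0.534), while *KRT6A* and its near copy *KRT6B* were 2.88 apart.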

How the data were processed

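RNA was taken from 8 libraries of stably transduced MCF10A and DCIS.COM cells and sequenced as 76-nt read pairs (ScriptSeq v2, HiSeq2000). The authors aligned reads to hg19 with Rsubread, counted them with featureCounts and deposited log2 CPM values made with edgeR, 1 column per library. The strand setting, the filter on low values and tool versions are not given in the sources used here. All values of the table were whole reads, within 0.05 reads, after undoing the log2 CPM scaling, which gave the CPM and read numbers printed. Depth was 20604377 to 37550457 reads on genes, and 3 reads, the limit that a count of 0 allows, came to 0.0836 to 0.143 CPM. These limits cover counting error only.

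Differences were tested with limma 3.58.1 in R 4.3.3 (trended empirical Bayes, 4 group means over 8 libraries, 4 residual degrees of freedom) on the deposited log2 CPM, since log2 CPM are not counts. All 13842 genes reached 0.5 CPM in 2 libraries, and p-values were adjusted over all of them. Calls needed more than 2-fold at an adjusted p below 0.01, which are the study's limits. The script was tested on simulated data. Sequences, positions and exon lengths came from GENCODE on GRCh37. Figures were drawn with matplotlib 3.10.9 and tables made with pandas 2.3.3 under Python 3.11.15.

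The members, the gene lists and the tests were chosen with earlier results of these data known. Named genes were the members, at most 3 called genes of each list per within-line comparison (largest change among genes at 5 CPM or more in the higher group), the 3 genes nearest each member in pattern, and MALINC1. *KRT6C* was named after its values were seen. So were *CDH1*, *EPCAM*, *CLDN4*, *ESRP1*, *KRT8*, *KRT18*, *KRT19*, *MUC1*, *ESR1*, *GATA3*, *FOXA1*, *MYLK*, *ACTA2*, *VIM*, *ZEB1*, *TWIST1* and CD68 among the markers. *SPRR3*, *FLG*, *DSG1* and *CDSN* of the suprabasal list were also named after their values were seen. Alternatives covered pseudocount, filter, scaling, model, threshold, left-out libraries and summed paralogs.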

Additional observations from a re-analysis of the deposited data

Results flagged for a closer look

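In 2 members the response to the MALINC1 vector differed between the lines by more than 2-fold. This is a description only, since the difference uses the DCIS.COM response. *KRT13* had a log2 fold change that was 3.45 higher in DCIS.COM (4.22) than in MCF10A (0.775), and both values were positive. *KRT14* had one that was lower in DCIS.COM, with a difference of -1.6, and the values were -0.59 in DCIS.COM and 1.01 in MCF10A. The direction differed in every library for *KRT14*: both MCF10A pLOC-MALINC1 libraries lay above both controls, and both DCIS.COM pLOC-MALINC1 libraries below theirs. The genes were chosen with the *KRT13* response known, and the cause of either difference was not tested.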

How the results depend on the processing

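With 2 libraries a group the spread rests on 4 residual degrees of freedom shared over the groups. How far reads shared by paralogs, or reads of the RNA antisense to *KRT13*, enter the values of single genes was not tested.

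In MCF10A the count of called members went from 1 to 0 with quantile normalization, with library totals without RN7SL1 and RN7SL2, and with upper quartile scaling. At an adjusted p below 0.01 at any fold it was 6 in MCF10A, 6 in DCIS.COM and 6 for the difference between them, against 1, 1 and 2. With 1 library left out it was 0 to 1 in MCF10A, and 0 without pLOC-empty replicate 2 or without pLOC-MALINC1 replicate 1. Where the count was 0, the log2 fold change of *KRT14*, the 1 member called, had slipped under the limit of 1. It was 0.878, 0.969 and 0.966 with the scalings, in the order given, and 0.982 and 0.994 without these libraries. With only the 4 libraries of a contrast fitted, 3 members in place of 6 passed at any fold in MCF10A.

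Signs turned only in small changes. Quantile normalization gave *KRT15* 0.047 in MCF10A, 0.352 between the lines with pLOC-empty and 0.487 with pLOC-MALINC1, and *KRT6B* 0.069 in DCIS.COM. *KRT15* between the lines with pLOC-MALINC1 was 0.141 with totals without RN7SL1 and RN7SL2 and 0.076 with upper quartile scaling. Without MCF10A pLOC-empty replicate 2, *KRT15* had 0.00036 in MCF10A, the highest of its values with 1 library left out, of which -0.091 was the lowest. Without MCF10A pLOC-MALINC1 replicate 2, *KRT13* had -0.0018 between the lines with pLOC-MALINC1, the lowest of a range up to 0.152. Summing the KRT6 copies gave *KRT6A* -0.061 in DCIS.COM, and summing *KRT14*, *KRT16* and *KRT17* gave 0.359 in place of the *KRT16* value in MCF10A. That sum is mostly *KRT17*, which has no 76-nt window in common with the other 2, so it says nothing of their shared reads. Between the lines with pLOC-empty, *KRT6B* passed the limits only in the sum of the KRT6 copies, at -3.058.

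These scalings moved the median of all genes by 0.106 (pLOC-empty) and 0.18 (pLOC-MALINC1) between the lines without the RN7SL genes, and by 0.115 (pLOC-MALINC1) with upper quartile scaling. Over all genes, calls in MCF10A went from 761 to 416 with a pseudocount of 1 CPM and 485 with a filter of 5 CPM, and those in DCIS.COM from 627 to 368 with that pseudocount. At any fold the calls over all genes were 5485, 4592, 4972, 10230 and 10102.

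Same-numbered libraries share only a number: their deviations correlated at -0.164 in MCF10A and 0.115 in DCIS.COM. Under the replicate block the members called were 1, 1, 2, 6 and 6, as without it. With the numbers crossed in MCF10A, chosen after seeing the data, it was 1.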
